A study of Arabidopsis thaliana with 9 samples.

Results

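The AGAMOUS-like genes outside the MIKC* class were followed in the sperm cells and vegetative nuclei of Arabidopsis thaliana pollen tubes. Members were all loci of the count table whose description contains the words AGAMOUS-like, in any case, except 6 MIKC* loci, which left 70 of 32833 loci. Pollen came from a line with a wild-type genotype tag that carries MGH3p::MGH3-GFP, a sperm histone fused to green fluorescent protein, and ACT11p::H2B-mRFP, a red histone H2B driven by an actin promoter. All 3 groups share this line and its transgenes, and cells or nuclei were sorted by fluorescence after 6 h of tube growth. Semi in vivo sperm (3 libraries) came from tubes that grew for 2 h in pollinated Col-0 pistils and for 4 h after the pistil was cut and laid on medium. In vitro sperm (3 libraries) and in vitro vegetative nuclei (3 libraries) came from tubes grown on germination medium for the whole period. The 2 sperm groups therefore differ in pistil contact, in time on medium and in the cut pistil laid on it, which cannot be told apart. Sperm and nuclei differ both in cell of origin and in being whole cells or nuclei.

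MADS-box proteins are transcription factors that bind DNA as dimers through the MADS domain. Type II genes have many exons and a keratin-like domain, and include regulators of flowering time and floral organs. Type I genes are mostly short and have few introns, and the members with a known function act largely in the embryo sac, the central cell and the endosperm, while MIKC* genes are the MADS-box genes best known in pollen. By textbook assignment 49 members are type I, 18 are type II and 3 (AGL26, AGL33 and AGL105) were not assigned. In the RefSeq annotation of TAIR10.1, type I members had 1 to 3 coding exons, 40 of them a single one, and type II members had 7 or 8. The members lie on all 5 chromosomes, 29 of them on chromosome 5.

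Depth ranged from 24005795 to 41118337 total counts in semi in vivo sperm, 14470065 to 40525238 in in vitro sperm and 13768069 to 35157304 in vegetative nuclei. A count of 0 allows up to 3 counts, which is 0.0730 to 0.218 CPM (counts scaled to the library's total, the usual unit of level here) depending on the library, for counting error only. Some libraries stood apart in breadth. Counts were found for 35.5% of all loci in semi in vivo sperm library 3, against 58.5% and 58.1% in the other 2 of its group. In vitro sperm library 2 had 82.2%, against 57.1% and 54.2%, and nucleus libraries 1, 2 and 3 had 23.9%, 49.4% and 38.5%. Marker sums separated the sorted fractions. The 11 sperm markers summed to 29710 to 30694 CPM in semi in vivo sperm, 22512 to 28330 CPM in in vitro sperm and 485 to 576 CPM in nuclei. Among them is MGH3, the gene of the green fluorescent transgene. In semi in vivo sperm the markers DAZ3 and PCR11 averaged 15620 and 8196 CPM, and GEX2 averaged 0.194 CPM. The 15 vegetative cell and tube markers summed to 187 to 253 CPM in semi in vivo sperm, 242 to 311 CPM in in vitro sperm and 34992 to 52534 CPM in nuclei.

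As a family, the 70 members took a small part of each library, and 4 of them made up most of it. Their summed level was 314, 283 and 310 CPM in semi in vivo sperm, 294, 359 and 340 CPM in in vitro sperm and 163, 228 and 84.3 CPM in vegetative nuclei. Every sperm library was above every nucleus library, and the sperm groups overlapped. AGL18, AGL31, AGL78 and AGL97 together held 89.0%, 83.3% and 94.99% of the family's CPM in semi in vivo sperm and 91.7%, 82.4% and 95.6% in in vitro sperm. AGL18 alone held 74.3%, 67.1% and 69.9% of the family's CPM in nuclei. Type I members summed to 164, 139 and 129 CPM in semi in vivo sperm, 98.8, 141 and 134 CPM in in vitro sperm and 27.5, 30.9 and 17.2 CPM in nuclei. Type II members summed to 150, 144 and 181 CPM in semi in vivo sperm, 195, 217 and 206 CPM in in vitro sperm and 136, 197 and 66.9 CPM in nuclei. Type I sums in sperm thus lay above every nucleus library, whereas type II sums of the groups overlapped between sperm and nuclei. In sorted fractions, fewer cells of a type and less RNA per cell cannot be told apart.

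**Figure D1:**
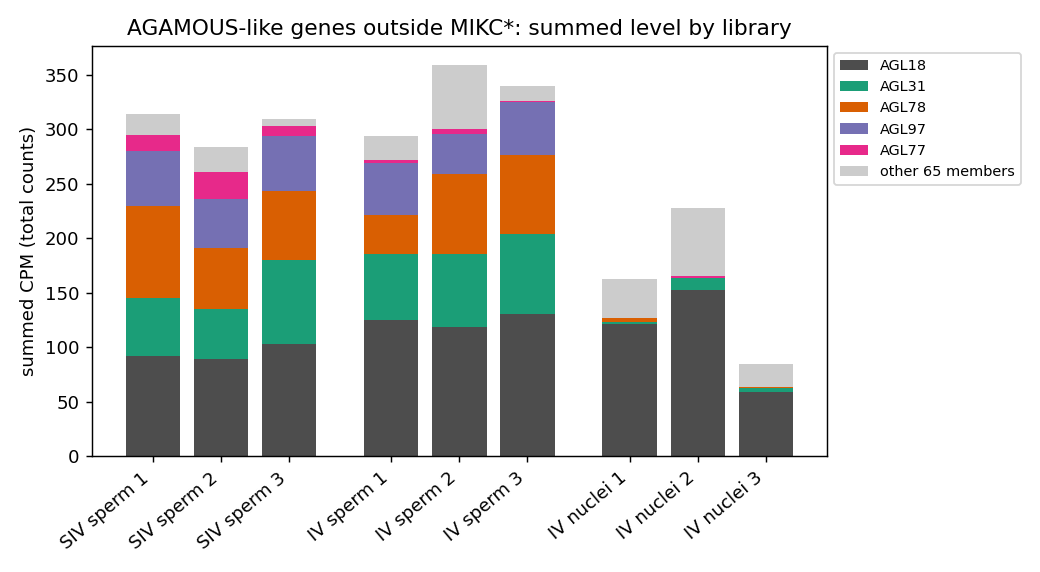
Summed CPM on total counts (vertical axis) of the 70 AGAMOUS-like genes outside MIKC* in each of the 9 libraries, stacked by gene, with SIV for semi in vivo and IV for in vitro. Sperm libraries reach 283 to 359 CPM with 4 large blocks (AGL18, AGL31, AGL78 and AGL97), and nucleus libraries reach 84.3 to 228 CPM with AGL18 as the main block.

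Most members were at or near 0. In semi in vivo sperm 51 of 70 members had a count in at least 1 library, in in vitro sperm 62 and in nuclei 36. Counts in all 3 libraries of a group were found for 11 members in semi in vivo sperm, 18 in in vitro sperm and 6 in nuclei. A mean of at least 1 CPM was reached by 7 members in semi in vivo sperm, 13 in in vitro sperm and 10 in nuclei, and 6 members reached 10 CPM in some group. AGL28, AGL29 and AGL105 had no counts in any library, and 7 members had fewer than 10 counts over all 9.

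How many members were seen moved with how many loci a library covered. Semi in vivo sperm libraries had counts for 35, 39 and 14 members, in vitro sperm libraries for 33, 56 and 34, and nucleus libraries for 11, 31 and 14. The library with the most members was also the one with the most loci covered in the in vitro sperm and nucleus groups. Of the members with counts and below 10 CPM in every group, in vitro sperm library 2 was the highest library for 25 and nucleus library 2 for 10. Without in vitro sperm library 2 the 62 members with counts in that group became 49, and without nucleus library 2 the 36 in nuclei became 18, a check chosen after seeing the data.

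**Figure D2:**
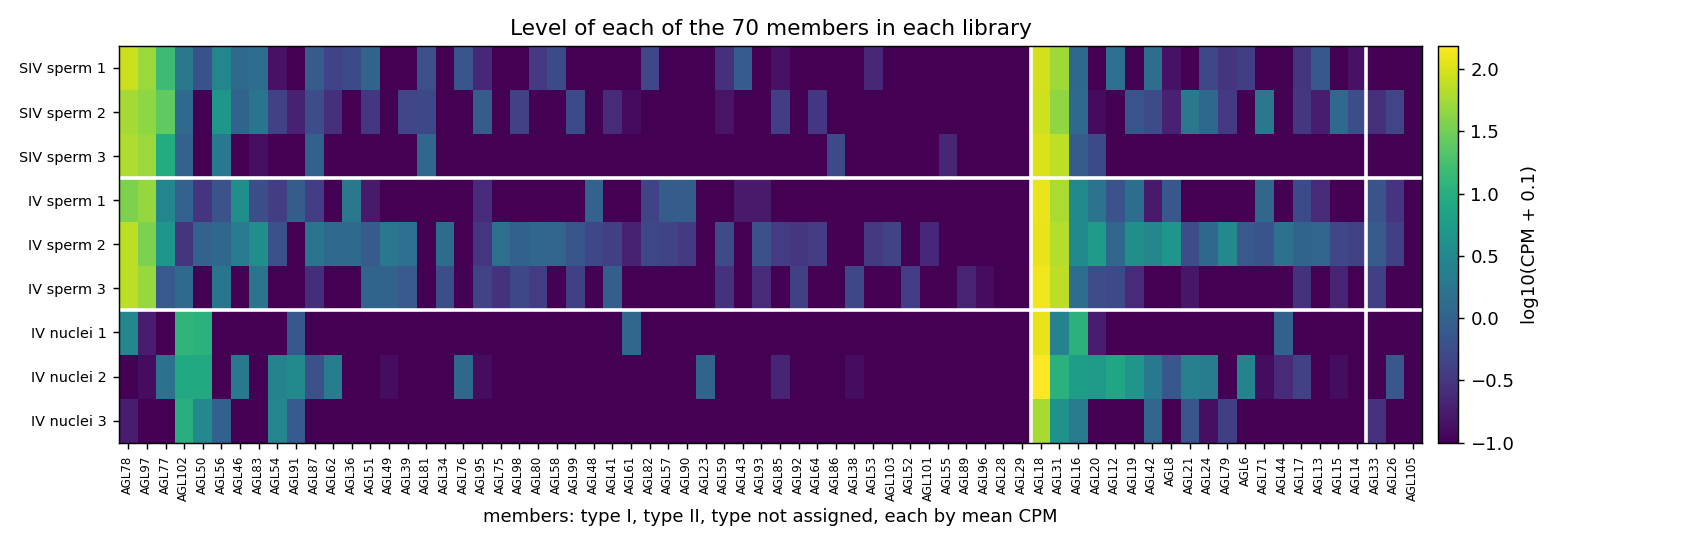
Level of each of the 70 members (columns) in each of the 9 libraries (rows), as log10 of CPM plus 0.1, with SIV for semi in vivo and IV for in vitro; white lines part the groups, and type I, type II and unassigned members, each sorted by mean CPM. AGL78 and AGL97 are bright in the 6 sperm rows, in nuclei AGL97 is at most at 0.0726 CPM and AGL78 at 2.91 CPM in library 1 and at most 0.0732 CPM in the other 2, AGL18 is bright in all 9 rows, and in vitro sperm library 2 has counts for 56 members against 11 to 39 in the other libraries.

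Only AGL18, AGL31, AGL16 and AGL102 had counts in all 9 libraries. AGL18 (AT3G57390, chromosome 3, 8 coding exons), a type II repressor of flowering, had the highest mean level of all members in every group. It had 91.8, 89.4 and 103 CPM in semi in vivo sperm, 125, 119 and 130 CPM in in vitro sperm and 121, 153 and 58.9 CPM in nuclei. The semi in vivo libraries lay below the in vitro sperm libraries without overlap, and nuclei spanned both.

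AGL31 (AT5G65050, chromosome 5), also named MAF2, is a type II flowering repressor close to FLC that delays the response to short cold spells. It had 53.1, 45.4 and 76.3 CPM in semi in vivo sperm, 60.7, 67.1 and 73.2 CPM in in vitro sperm and 2.47, 10.7 and 4.13 CPM in nuclei. The sperm groups overlapped and both lay above nuclei. AGL31 has close copies among the MAF genes, so reads shared between them would make its values uncertain.

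AGL16 (AT3G57230, chromosome 3), a type II gene with a role in flowering time and stomata, was low throughout. It had 1.08, 1.12 and 0.761 CPM in semi in vivo sperm, 3.25, 3.23 and 1.34 CPM in in vitro sperm and 11, 6.03 and 1.94 CPM in nuclei. Each semi in vivo library was below each library of the other groups.

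The other type II members were counted in some libraries and at 0 in others of the same group. AGL20 (AT2G45660), better known as SOC1, an activator of flowering that integrates several pathways, had 0, 0.0243 and 0.426 CPM in semi in vivo sperm, 1.52, 5.45 and 0.463 CPM in in vitro sperm and 0.0726, 5.06 and 0 CPM in nuclei. AGL19 (AT4G22950), a flowering activator of the cold response, had 0, 0.608 and 0 CPM in semi in vivo sperm, 1.31, 3.80 and 0.136 CPM in in vitro sperm and 0, 4.52 and 0 CPM in nuclei. For both, library 2 was the highest library of the in vitro sperm group and of the nucleus group. AGL8 (AT5G60910), or FRUITFULL, a regulator of fruit growth and flowering, had 0.0417, 0.0973 and 0 CPM in semi in vivo sperm, 0.622, 4.57 and 0 CPM in in vitro sperm and 0, 0.626 and 0 CPM in nuclei. AGL12 (AT1G71692), a root development gene, had 1.37, 0 and 0 CPM in semi in vivo sperm, 0.553, 1.06 and 0.409 CPM in in vitro sperm and 0, 7.34 and 0 CPM in nuclei. AGL8 was thus highest in in vitro sperm library 2 and AGL12 in nucleus library 2. AGL79 (AT3G30260) passed 1 CPM as a group mean through in vitro sperm library 2 alone, at 3.04 CPM, with no counts in the other 2 libraries of that group. The 16 type II members other than AGL18 and AGL31 together had 5.58, 9.0 and 1.19 CPM in semi in vivo sperm, 8.91, 30.8 and 2.70 CPM in in vitro sperm and 11.9, 33.0 and 3.84 CPM in nuclei.

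Pistil and other maternal transcripts were looked for because several of these genes are active in flowers. The 11 pistil and ovule markers outside the MADS-box family summed to 3.37 to 4.23 CPM in semi in vivo sperm, 2.53 to 15.4 CPM in in vitro sperm and 0 to 10.2 CPM in nuclei. The 6 green tissue markers summed to 1.83 to 4.57 CPM in semi in vivo sperm, 4.01 to 5.11 CPM in in vitro sperm and 0 to 1.74 CPM in nuclei. The 5 egg cell markers summed to at most 0.417 CPM in semi in vivo sperm and 0.814 CPM in in vitro sperm, and had no counts in nuclei. For each list the ranges of the 2 sperm groups overlapped. The 15.4 CPM of pistil and ovule markers was in in vitro sperm library 2, against 6.91 and 2.53 CPM in libraries 1 and 3. The part of such transcripts in the low type II values was not tested.

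Among type I members, a pair was abundant in sperm of both kinds. AGL78 (AT5G65330, chromosome 5, single coding exon) had 84.5, 56.7 and 64.2 CPM in semi in vivo sperm, 36.0, 73.1 and 72.9 CPM in in vitro sperm and 2.91, 0 and 0.0732 CPM in nuclei. AGL97 (AT1G46408, chromosome 1, single coding exon) had 50.5, 44.5 and 50.4 CPM in semi in vivo sperm, 48.0, 36.4 and 48.8 CPM in in vitro sperm and 0.0726, 0.0284 and 0 CPM in nuclei, which is 2 counts over the 3 nucleus libraries. For both genes the sperm groups overlapped and every sperm library was above every nucleus library. AGL97 also varied little among sperm libraries, at 48.5 ± 3.43 CPM in semi in vivo sperm and 44.4 ± 6.90 CPM in in vitro sperm (SD, n = 3 each).

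AGL77 (AT5G38740, chromosome 5, single coding exon), also type I, lay lower. It had 15.4, 25.1 and 9.03 CPM in semi in vivo sperm, 2.76, 4.64 and 0.681 CPM in in vitro sperm and 0, 1.42 and 0 CPM in nuclei. The underlying counts were 369, 1034 and 297 in semi in vivo sperm, 40, 188 and 25 in in vitro sperm and 0, 50 and 0 in nuclei. Each semi in vivo library was above each in vitro sperm library, and library 2 was the highest of every group.

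Several type I members were low and had their highest mean in a sperm group. AGL83 (AT5G49490), the member with counts in all 6 sperm libraries and none in nuclei, had 1.33, 1.61 and 0.0304 CPM in semi in vivo sperm and 0.484, 3.603 and 1.58 CPM in in vitro sperm. AGL56 (AT1G60880) had 2.83, 4.72 and 1.86 CPM in semi in vivo sperm, 0.553, 1.09 and 1.64 CPM in in vitro sperm and 0, 0 and 0.878 CPM in nuclei. AGL46 (AT2G28700) had 1.17, 0.973 and 0 CPM in semi in vivo sperm, 3.80, 2.02 and 0 CPM in in vitro sperm and 0, 1.82 and 0 CPM in nuclei. Of these, AGL56 did not overlap between the sperm groups. AGL46 overlapped between nuclei and both sperm groups, and AGL56 between nuclei and in vitro sperm.

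A pair of members was counted in all libraries of 1 group and in none elsewhere. How many of all loci did so, or shared the pattern of AGL83, was not counted. AGL81 (AT5G39750) had 12, 16 and 35 counts in the semi in vivo sperm libraries, or 0.500, 0.389 and 1.06 CPM, and 0 in the other 6 libraries. AGL93 (AT5G26950) had 1, 21 and 5 counts across in vitro sperm and 0 elsewhere, the 21 being in the library that covered the most loci. In the RefSeq annotation AGL93 overlaps a coding gene on the opposite strand, which had no counts in any library. Another 8 members were counted in a single library, with 34 counts for AGL23, which acts in the embryo sac, in nucleus library 2.

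Other type I members had their highest mean in vegetative nuclei. AGL102 (AT1G47760, chromosome 1, 2 coding exons) had 1.79, 1.17 and 0.913 CPM in semi in vivo sperm, 0.898, 0.197 and 1.14 CPM in in vitro sperm and 12.2, 8.59 and 9.70 CPM in nuclei. AGL50 (AT1G59810, chromosome 1, single coding exon) had 0.542, 0 and 0 CPM in semi in vivo sperm, 0.207, 0.913 and 0 CPM in in vitro sperm and 10.6, 8.45 and 3.04 CPM in nuclei. For both, every nucleus library was above every sperm library. AGL54 (AT5G27090) had 0.0417, 0.316 and 0 CPM in semi in vivo sperm, 0.276, 0.543 and 0 CPM in in vitro sperm and 0, 2.56 and 2.82 CPM in nuclei. AGL91 (AT3G66656) had 0, 0.0973 and 0 CPM in semi in vivo sperm, 0.760, 0 and 0 CPM in in vitro sperm and 0.654, 3.13 and 0.695 CPM in nuclei. The last 2 overlapped between nuclei and in vitro sperm.

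**Figure D3:**
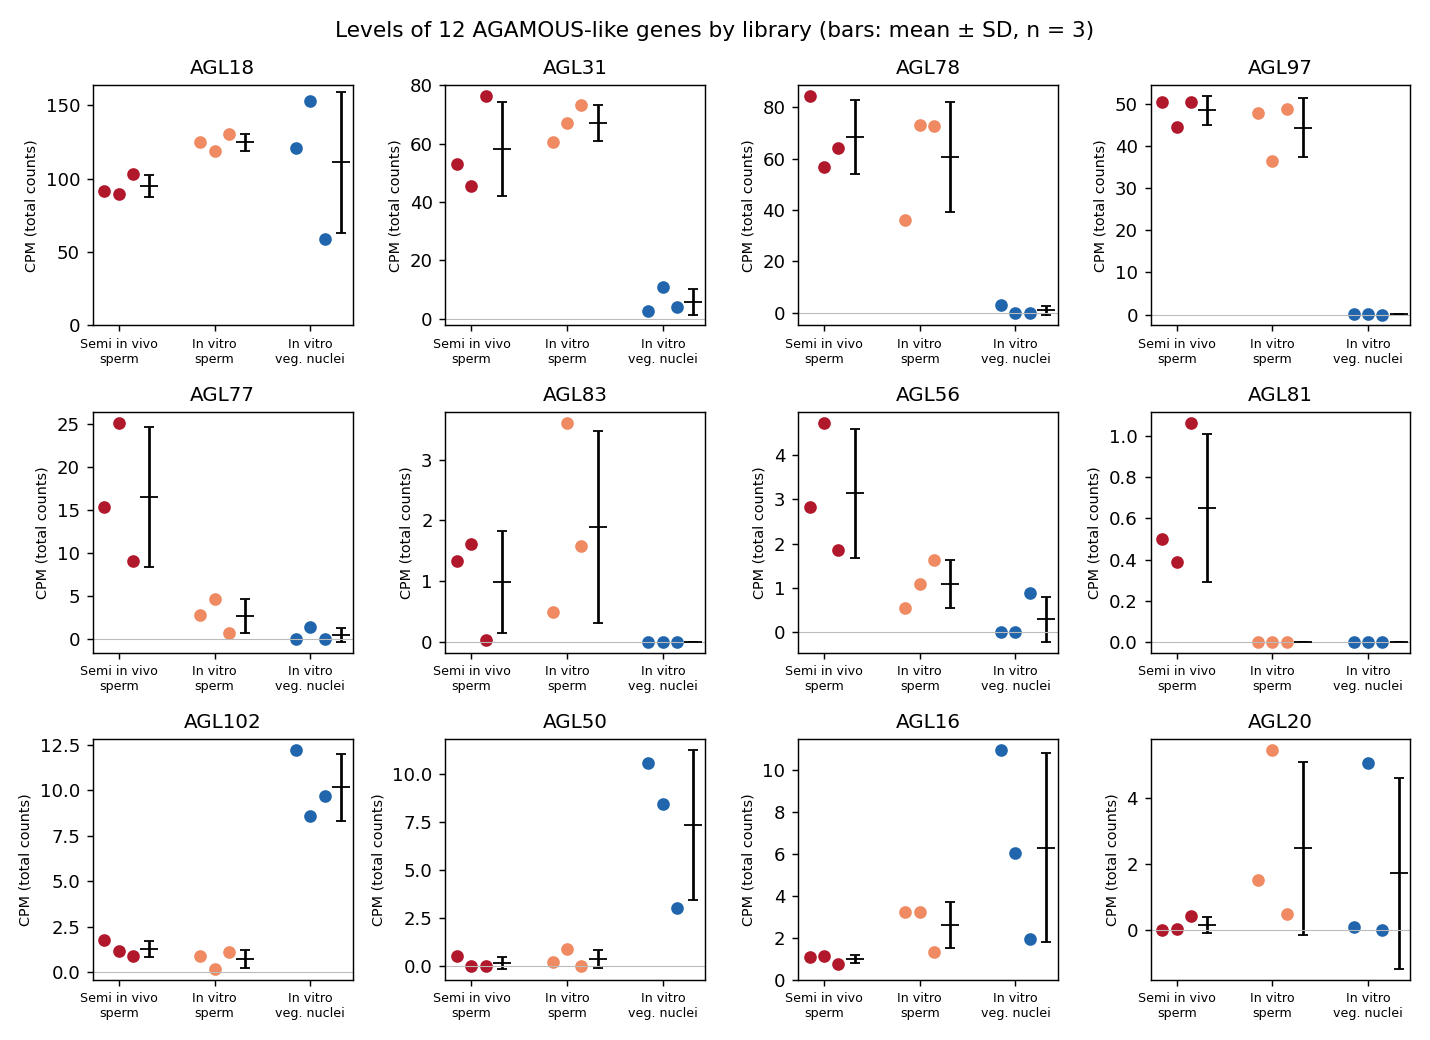
CPM on total counts (vertical axes, linear, each with its own scale) of 12 members in semi in vivo sperm, in vitro sperm and in vitro vegetative nuclei; each point is a library, and the bar beside it is the mean ± SD (n = 3). AGL77 lies at 9.03 to 25.1 CPM in semi in vivo sperm and 0.681 to 4.64 CPM in in vitro sperm, AGL97 at 36.4 to 50.5 CPM in the 6 sperm libraries and at most 0.0726 CPM in nuclei, and AGL102 at most at 1.79 CPM in sperm, against 8.59 to 12.2 CPM in nuclei.

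To set genes side by side, levels were divided by coding length (CPM per kb). In semi in vivo sperm AGL18 led at 123.1 ± 9.66 CPM per kb, followed by AGL31 at 98.6 ± 27.3, AGL78 at 66.7 ± 14.0, AGL97 at 60.5 ± 4.28, AGL77 at 12.9 ± 6.34 and AGL56 at 5.17 ± 2.40 CPM per kb (SD, n = 3). In in vitro sperm the first 4 had the same order, at 162 ± 7.41, 113 ± 10.6, 59.1 ± 20.8 and 55.4 ± 8.61 CPM per kb (SD, n = 3), followed by AGL20 at 3.84 ± 4.08 and AGL16 at 3.604 ± 1.52. In semi in vivo sperm the ranges of neighbours in this order overlapped, except that AGL97 lay above AGL77. In in vitro sperm AGL18 lay above AGL31 and AGL31 above AGL78 without overlap, AGL78 and AGL97 overlapped, and so did AGL20 and AGL16. In nuclei AGL18 stood at 144 ± 62.1 CPM per kb, above AGL102 at 18.3 ± 3.33, AGL31 at 9.76 ± 7.36, AGL16 at 8.73 ± 6.25, AGL50 at 8.64 ± 4.58 and AGL12 at 3.85 ± 6.66 CPM per kb (SD, n = 3). Below AGL18, each of these overlapped its neighbour in the order.

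The first comparison, of semi in vivo with in vitro sperm, asks whether passage through the pistil went with a change in these genes. AGL77 was higher in semi in vivo sperm, and no other member passed the test. After scaling it had 17.5 ± 8.04 CPM in semi in vivo sperm and 2.46 ± 1.70 CPM in in vitro sperm (SD, n = 3), a 7.09-fold difference that was higher in 3 of 3 libraries (log2 fold change 2.83, SE 0.53, adjusted p = 0.02 by edgeR quasi-likelihood with Benjamini-Hochberg adjustment over all genes). The abundant members had small fold changes that did not pass. The log2 fold change was 0.31 for AGL97 (SE 0.22, edgeR adjusted p = 0.932), 0.37 for AGL78 (SE 0.26, adjusted p = 0.919), -0.0027 for AGL31 (SE 0.23, adjusted p = 1) and -0.21 for AGL18 (SE 0.19, adjusted p = 0.999).

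Of the 70 members, 25 had enough counts to be tested, 1 was higher and 0 were lower. Over all 14131 genes tested, 76 were higher (0.538%) and 13 lower (0.092%), in all 0.63%. At an unadjusted p below 0.05 by edgeR 2 members were higher (AGL77 and AGL81) and 1 lower (AGL20), where 1138 of the 14131 genes tested passed. DESeq2 also called 1 higher and 0 lower. The members' median log2 fold change was -0.41, with 9 positive and 16 negative values, against a median of -0.17 over all genes, and was the same with AGL81 placed at its bound. In CPM on total counts, 7 members did not overlap between the sperm groups, against 16.4% of all genes tested. They were AGL77, AGL81 and AGL56, higher in semi in vivo sperm, and AGL18, AGL16, AGL20 and AGL33, lower.

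AGL81 had no counts in in vitro sperm and was at least 22.6-fold higher in semi in vivo sperm, against 3 counts over the in vitro group, but did not pass (edgeR adjusted p = 0.351). The bound was 14.8-fold without semi in vivo sperm library 3, and 11.98-fold or 14.1-fold without in vitro sperm library 2 or 3. AGL81 passed the filter on low counts through semi in vivo sperm alone, so once tested it could only come out higher. AGL56 had a log2 fold change of 1.67 (SE 0.79, edgeR adjusted p = 0.621), and AGL83 of -0.74 (SE 1.29, adjusted p = 0.999). AGL20 had a log2 fold change of -3.70 (SE 1.67, edgeR adjusted p = 0.576) and AGL16 of -1.20 (SE 0.90, adjusted p = 0.953). Members with scaled means below 1 CPM in both groups had standard errors of 1.75 to 2.71 on the log2 scale, and their counts differed between libraries of a group: AGL12, for example, had 33, 0 and 0 counts in semi in vivo sperm and 8, 43 and 15 in in vitro sperm. With such spread a difference of several fold could not be told from none. The remaining tested members had adjusted p-values of 0.919 to 1 by edgeR.

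The AGL77 call was lost without in vitro sperm library 1, where the log2 fold change was 2.92 and the edgeR adjusted p was 0.223. Without in vitro sperm library 2 it was 3.47 (edgeR adjusted p = 0.00775). With in vitro sperm library 2 and semi in vivo sperm library 3, which stood apart in breadth, both left out, the log2 fold change was 3.75 (edgeR adjusted p = 0.211) and no gene of the whole table was called. AGL77 belongs to a multigene family, and reads shared with a close copy would make its values uncertain.

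In vitro sperm cells were next compared with in vitro vegetative nuclei from tubes grown alike. AGL97, AGL31, AGL78 and AGL83 were higher in sperm, and no member was called lower. After scaling, AGL97 had 61.6 ± 9.24 CPM in in vitro sperm and 0.0269 ± 0.0318 CPM in nuclei, and AGL78 88.9 ± 42.4 CPM in in vitro sperm and 0.843 ± 1.42 CPM in nuclei (SD, n = 3). AGL31 had 94.97 ± 23.3 CPM in in vitro sperm and 3.98 ± 2.66 CPM in nuclei, a 23.8-fold difference. By mean CPM on total counts, without this scaling, the ratio of in vitro sperm to nuclei was 11.6 for AGL31 and 61.1 for AGL78. AGL18, the most abundant member in both fractions, did not pass.

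The log2 fold change of AGL97 was 11.29 (SE 1.19, adjusted p = 0.000949 by edgeR quasi-likelihood with Benjamini-Hochberg adjustment). Its pooled counts per total counts were 1647 times as high in in vitro sperm as in nuclei, with an exact 95% interval of 456 to 13606 for counting error only, since nuclei held 2 counts. AGL31 had a log2 fold change of 4.57 (SE 0.75, edgeR adjusted p = 0.0041) and AGL78 of 6.78 (SE 2.10, adjusted p = 0.0344, 110-fold). Of the 42 nuclear counts of AGL78, 40 were in nucleus library 1. Without that library the log2 fold change was 10.99 (edgeR adjusted p = 0.00149), and pooled scaled counts were 4604 times as high in in vitro sperm, with an exact 95% interval of 1274 to 38023 for counting error only, since 2 nuclear counts were left. With all libraries that pooled ratio was 257, and it was 132 without nucleus library 2 and 171 without nucleus library 3, where the fitted log2 fold change was 6.15 and 6.18. The log2 fold change of AGL31 was 3.42 without nucleus library 1, 5.25 without nucleus library 2 and 3.41 with TMM factors from unfiltered genes. AGL83, at 0 in nuclei, was at least 123-fold higher in in vitro sperm against 3 counts over the nucleus group (edgeR adjusted p = 0.0219). AGL83 passed the filter on low counts through in vitro sperm alone, so once tested it could only come out higher. Its place among the 4 therefore gives no support to their direction. In vitro sperm library 2 held 146 of its 211 counts in in vitro sperm, and without that library the bound was 63.0-fold. Without nucleus library 2 or 3 the bound was 63.2-fold or 78.1-fold. Each of the 4 was higher in 3 of 3 in vitro sperm libraries than in any nucleus library.

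Of 19 members tested, 4 were higher and 0 lower, where 30.7% of 14061 genes tested were higher, 14.3% were lower and 44.9% were called in all. At an unadjusted p below 0.05 by edgeR 4 members were higher and 1, AGL102, was lower, where 7285 of the 14061 genes tested passed. DESeq2 called 4 higher and 2, AGL102 and AGL50, lower, and its share over all genes is not given here. The members' median log2 fold change was 1.39, with 12 positive and 7 negative values, and the median over all genes was 1.70. That median depends on the scaling, being 1.57 with RLE, 1.27 with upper-quartile factors and 0.55 when TMM factors come from unfiltered genes, and fold changes are read against it. In CPM on total counts 6 members did not overlap between in vitro sperm and nuclei (AGL97, AGL31, AGL78 and AGL83 higher, AGL102 and AGL50 lower), against 64.1% of all genes tested.

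AGL102 had a log2 fold change of -2.90 (SE 1.06, edgeR adjusted p = 0.0588; 0.00234 to 0.203 over the alternatives), 13.6 times as high in nuclei by mean CPM on total counts. It passed as lower in sperm with upper-quartile factors, TMM factors from unfiltered genes, the 5 CPM filter, DESeq2 or all 9 libraries in 1 fit. AGL50 had a log2 fold change of -3.26 (SE 1.77, edgeR adjusted p = 0.182), and passed by DESeq2 only, with an adjusted p of 0.0257. AGL18 had a log2 fold change of 1.11 (SE 0.53, edgeR adjusted p = 0.133), below the median of all genes, and a ratio of mean CPM on total counts of 1.12. AGL16 had -0.43 (SE 1.06, edgeR adjusted p = 0.773) and AGL77 had 3.59 (SE 2.20, adjusted p = 0.232). All 50 nuclear counts of AGL77 were in nucleus library 2. Without that library AGL77 passed (edgeR adjusted p = 0.0327; 0.0327 to 0.688 over the alternatives) and was at least 75.7-fold higher in in vitro sperm, against 3 counts over the other 2 nucleus libraries. Its log2 fold change was 2.05 without nucleus library 1, 2.97 without nucleus library 3 and 2.69 without in vitro sperm library 2. None of these passed (edgeR adjusted p = 0.485, 0.298 and 0.461). The ratio of pooled scaled counts of AGL77 was 8.87 with all libraries, 3.78 without in vitro sperm library 2 and 5.62 without nucleus library 3. The 75.7-fold value thus covers counting error in nucleus libraries 1 and 3 only and is no floor for the group. The other members with a group mean of at least 1 CPM, AGL8, AGL12, AGL19, AGL20, AGL46, AGL54, AGL56 and AGL91, had log2 fold changes of -1.89 to 4.21 and edgeR adjusted p-values of 0.259 to 0.829.

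AGL97 and AGL31 passed in every alternative fit run. AGL78 lost its call when any of the 3 in vitro sperm libraries or nucleus library 3 was left out, where its adjusted p reached 0.0693 (edgeR). AGL83 was tested in 14 of 16 alternatives and lost its call in 6 of them, where its adjusted p reached 0.0731 (edgeR).

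Semi in vivo sperm were also set against the nuclei, which stand as the same 3 libraries in both comparisons and came from in vitro tubes. Of 16 members tested 5 were higher and 0 lower, where 31.7% of 11757 genes tested were higher, 21% lower and 52.6% called in all. At an unadjusted p below 0.05 by edgeR the counts were also 5 and 0, where 6898 of the 11757 genes tested passed. No alternative fit was run for this comparison, so none of these calls was refitted with a library left out. The log2 fold change was 11.42 for AGL97 (adjusted p = 0.000898 by edgeR), 4.27 for AGL31 (adjusted p = 0.00392) and 6.87 for AGL78 (adjusted p = 0.0266). For AGL97 the pooled counts per total counts were 1829 times as high in semi in vivo sperm as in nuclei, with an exact 95% interval of 506 to 15108 for counting error only. AGL77 had a log2 fold change of 6.23 (SE 2.02, edgeR adjusted p = 0.0347). Without nucleus library 2, which held all 50 of its nuclear counts, it was 438-fold higher against 3 counts over nucleus libraries 1 and 3. That value covers counting error in nucleus libraries 1 and 3 only and is no floor for the group. The ratio of pooled scaled counts of AGL77 was 51.2 with all libraries, 29.9 without semi in vivo sperm library 2 and 32.4 without nucleus library 3. For AGL78, leaving out nucleus library 1 took the pooled scaled counts to 4160 times those of nuclei, with an exact 95% interval of 1151 to 34360 for counting error only, against 232 times with all libraries, 119 times without nucleus library 2 and 154 times without nucleus library 3. AGL81 was at least 31.6-fold higher in semi in vivo sperm (edgeR adjusted p = 0.0206), a bound of 16.2-fold without nucleus library 2 and 20.04-fold without library 3. With no counts in nuclei, AGL81 was tested through semi in vivo sperm alone and could only come out higher. AGL18 had 0.68 (edgeR adjusted p = 0.352) and AGL102 -2.04 (adjusted p = 0.0993). AGL83, with 99 counts in semi in vivo sperm and 0 in nuclei, did not pass the filter on low counts and was not tested here. In CPM on total counts 10 members did not overlap between these groups, against 71.1% of all genes tested.

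**Figure D4:**
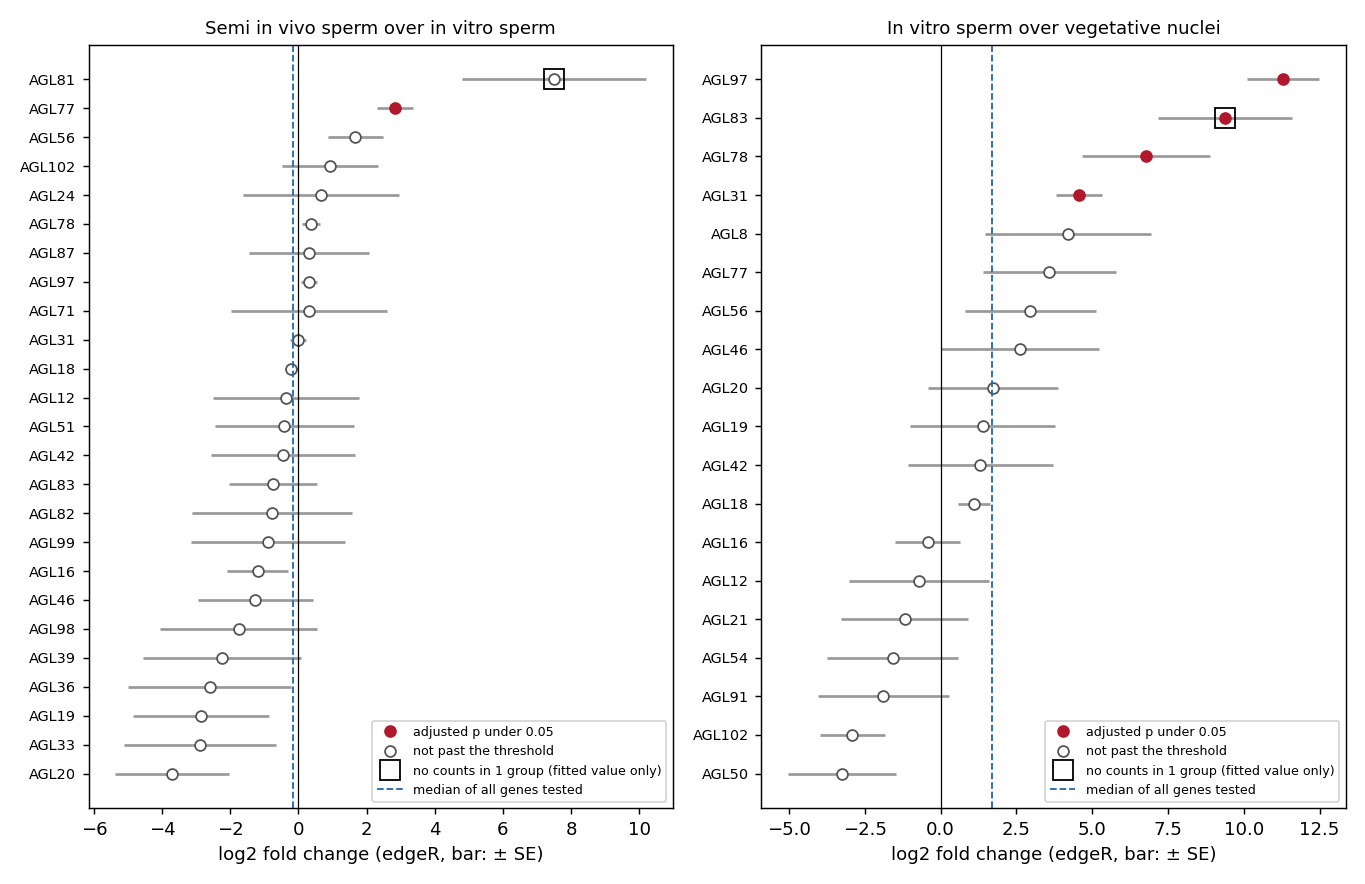
Log2 fold change by edgeR (horizontal axes, bars ± SE) of the 25 members tested between semi in vivo and in vitro sperm and the 19 tested between in vitro sperm and vegetative nuclei; filled points passed an adjusted p of 0.05, a square marks a member with no counts in 1 group, whose fitted value is no bound, and dashed lines mark the median of all genes. AGL77 (2.83) is the filled point of the sperm comparison, and AGL97 (11.29), AGL83, AGL78 (6.78) and AGL31 (4.57) are those against nuclei.

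Between the sperm groups or between in vitro sperm and nuclei, 30 members were tested, 14 in both comparisons, 11 between the sperm groups only and 5 (AGL50, AGL54, AGL8, AGL91 and AGL21) against nuclei only. The 40 members tested in neither had 0 to 146 counts in all 9 libraries together and a group mean of at most 1.01 CPM. They hold 31 type I members, 7 type II members and AGL26 and AGL105. Some are known for their role on the female side, and these were picked after their values were seen. AGL62, which delays endosperm cellularization, had 8, 7 and 0 counts in semi in vivo sperm, 0, 45 and 0 in in vitro sperm and 0, 75 and 0 in nuclei. AGL80, needed in the central cell, had 6, 0 and 0 counts in semi in vivo sperm, 0, 41 and 10 in in vitro sperm and 0 in nuclei. AGL61, its partner in the central cell, had 0, 1 and 0 counts in semi in vivo sperm, 0, 4 and 0 in in vitro sperm and 14, 0 and 0 in nuclei. All 3 genes had libraries at 0 in every group.

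Some members lie near each other on a chromosome. With neighbours at most 10 places apart in the order of coding genes, they formed 8 runs. The longest run, AGL26, AGL93, AGL101, AGL53, AGL54 and AGL39 on chromosome 5, had 399 counts in all over 6 members and 9 libraries. AGL81 and AGL98 form another run, with 126 counts, and AGL36, a maternally expressed endosperm gene, and AGL34 one more, with 150 counts. AGL29, with no counts, overlaps by 1064 bases with AT2G34450 on the opposite strand, which had 0 to 14 counts per library. Smart-seq2 libraries do not keep the strand, so reads of overlapping genes cannot be told apart.

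Other MADS-box loci gave the setting for these values. The 6 MIKC* loci summed to 6.49 to 13.9 CPM in semi in vivo sperm, 19.0 to 22.3 CPM in in vitro sperm and 384 to 1004 CPM in nuclei. Of 6 tested, 5 were lower in in vitro sperm than in nuclei and 1 did not pass, and the 4 tested between the sperm groups had adjusted p-values of 0.233 to 1 (edgeR). AGL104, a MIKC* gene of pollen maturation and tube growth, averaged 0.180 CPM in semi in vivo sperm, 0.369 CPM in in vitro sperm and 259 CPM in nuclei. The MIKC* genes AGL30, AGL66, AGL94 and AGL65 averaged 0.208 to 3.57 CPM in semi in vivo sperm, 0.214 to 9.97 CPM in in vitro sperm and 79.3 to 213 CPM in nuclei. The MIKC* locus that did not pass, AGL67, averaged 1.61 CPM in semi in vivo sperm, 1.95 CPM in in vitro sperm and 0.461 CPM in nuclei, with a log2 fold change of 3.25 between in vitro sperm and nuclei (SE 2.18, edgeR adjusted p = 0.272).

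Of 40 other MADS-box loci that are no members, 20 were tested between the sperm groups, with adjusted p-values of 0.0895 to 1 by edgeR and a median log2 fold change of -1.17. Between in vitro sperm and nuclei 18 were tested, 7 were higher in sperm and 11 did not pass, with a median log2 fold change of 3.58, where 30.7% of all genes tested were higher and the median over all genes was 1.70. The clade of AGL31, a set gathered after the values were seen, holds 6 genes, FLC and MAF1 to MAF5, of which 5 were tested, 4 were higher in in vitro sperm than in nuclei and 0 were lower, where 30.7% of all genes tested were higher. The 4 were AGL31, MAF1, FLC and MAF3. FLC had 17, 61 and 17 counts in in vitro sperm and 0 in nuclei. Like any locus at 0 in nuclei, FLC could only come out higher once tested. Reads shared between AGL31 and the other MAF genes would make the values of all of them uncertain. Between semi in vivo sperm and nuclei 3 of 5 were higher, where 31.7% of all genes tested were higher. MAF3 did not pass there (log2 fold change 1.95, edgeR adjusted p = 0.0538). MAF5 had a log2 fold change of 1.72 (SE 2.18, edgeR adjusted p = 0.562), and MAF4, which did not pass the filter on low counts, averaged 0.340 CPM in semi in vivo sperm, 0.107 CPM in in vitro sperm and 2.99 CPM in nuclei. By mean CPM over all 9 libraries the highest of the 40 was AT5G49420, named AGL84 in the table, at 52.3 CPM in semi in vivo sperm, 30.7 CPM in in vitro sperm and 3.77 CPM in nuclei. Within in vitro sperm MAF1 was higher, at 35.4 CPM, and within nuclei MAF3, at 7.05 CPM. Between the sperm groups AT5G49420 did not pass (log2 fold change 0.95, adjusted p = 0.0895 by edgeR). Among 4 subunits of the FIS Polycomb complex, which represses some type I genes in the endosperm, adjusted p-values between the sperm groups were 0.831 to 0.999 (edgeR). MSI1 was higher in in vitro sperm than in nuclei, where it had no counts (edgeR adjusted p = 0.00419), and the other 3 did not pass.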

How the data were processed

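RNA of sorted sperm cells and vegetative nuclei was measured in 9 libraries, 3 per group, made with Smart-seq2, a full-length cDNA method without molecular identifiers or strand. The authors deposited raw counts per gene; per the submitters' processing notes Trim Galore, HISAT2 and featureCounts were used, with the TAIR10 build. For versions, strand setting and multiply mapped reads, nothing is given in the sources used here. Members and gene lists were chosen with earlier results of these data known. All 70 members, and 32548 of 32833 loci, were found in RefSeq's TAIR10.1 gene table, used for symbols, coding length and exon number; no coordinates or sequences are printed because that build is not the files' own.

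Only the 6 libraries compared entered each fit, run with edgeR 4.0.16 (R 4.3.3): filterByExpr (minimum count 10), TMM factors, a robust quasi-likelihood fit, the F test and Benjamini-Hochberg adjustment over all genes tested, with a threshold of 0.05. The standard error is the size of the log2 fold change divided by the root of F. CPM per library is on total counts, while fold changes and scaled CPM use TMM factors within a comparison. Bounds against a group at 0 use 3 counts over that group. The procedure was run on counts simulated from the fitted spread of the sperm groups, without nuclei. The outcome is not given here. Members named with values are those called, those tested with a mean of at least 1 CPM in a group, the 5 highest per kb in each group, AGL77, and those with counts in all libraries of 1 group only; exceptions are marked. Alternatives were RLE and upper-quartile scaling, TMM factors from unfiltered genes, DESeq2 1.42.0, no filter, a filter of 5 CPM in 3 libraries, libraries left out, a block on replicate number, all 9 libraries in 1 fit, and semi in vivo in place of in vitro sperm. Replicates are not said to come from separate plants, so the p-values reflect the spread of these samples alone, possibly a technical one. No 2 libraries of a group were near duplicates (chi-square of their counts 25.3 to 369 per gene).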

Additional observations from a re-analysis of the deposited data

How the results depend on the processing

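Between the sperm groups the number of members higher in semi in vivo sperm was 0 to 1 with a library left out (0 without in vitro sperm library 1), 0 with in vitro sperm library 2 and semi in vivo sperm library 3 both left out and 0 with all 9 libraries in 1 fit (AGL77 log2 fold change 2.71, edgeR adjusted p = 1), against 1 as reported. The log2 fold change of AGL77 stayed positive, at 2.41 to 3.75, in all 15 alternatives, and 12 of them kept the call. The cause of the lost calls was not tested. Genes called over the whole table, 89 as reported, were 347 by DESeq2, 150 without a filter, 165 with the 5 CPM filter and 51 without in vitro sperm library 1, and 0 both with those 2 libraries left out and with all 9 in 1 fit. Against nuclei the number of members higher in in vitro sperm was 2 to 5 with a library left out (2 without in vitro sperm library 1 or 2 or nucleus library 3), against 4. The number lower was 1 with upper-quartile factors, TMM factors from unfiltered genes, the 5 CPM filter and all 9 libraries in 1 fit and 2 by DESeq2, against 0. Members with counts in nuclei were 18 without nucleus library 2, against 36, an alternative chosen after seeing the data.

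Deviations of libraries that share a replicate number correlated at -0.00609, 0.0643 and 0.170 between the sperm groups and at 0.0231, 0.0661 and 0.00442 against nuclei. Semi in vivo sperm libraries 2 and 3 matched their own number best among the in vitro sperm libraries, and library 1 did not. In vitro sperm libraries 1 and 2 matched their own number best among the nucleus libraries, and library 3 did not. Nothing given says that the numbers mark pairs, so they were not used as such. With the number as a replicate block, 1 member was higher and 0 lower between the sperm groups (AGL77, log2 fold change 3.04, edgeR adjusted p = 5.93e-10; 223 genes called in all), and 4 higher and 0 lower against nuclei. The planned grouping of members by protein identity was not run. No named member reversed its call in the alternatives to the sperm comparison or to in vitro sperm against nuclei. Members below about 1 CPM were often at 0 in some libraries of a group and counted in others, the deeper libraries included: AGL50 had 13, 0 and 0 counts in the semi in vivo sperm libraries, of 24005795, 41118337 and 32872736 counts in all.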
